A study of Mus musculus with 469 samples.

Results

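The odorant receptor genes with symbols from Olfr1000 to Olfr1300 made up 19.98% of the 1116 Olfr entries in the deposited tables, with 893 entries outside the range, and 6 members carried a pseudogene suffix (-ps). Members were taken by symbol alone, with no measured value used. Odorant receptors are G protein-coupled receptors on the cilia of olfactory sensory neurons. Class II receptors are the tetrapod type, encoded in clusters on many chromosomes, and a mature neuron is known to express a single allele of a single receptor gene. Choice is made as the neuron differentiates, after a stage at which several receptors can be detected at low level, and is then held by a feedback loop through the unfolded protein response and adenylyl cyclase 3.

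Single cells of mouse olfactory epithelium had been captured on Fluidigm C1 chips, and each library came from 1 captured cell by its label. There were 61 Neurog1-eGFP+ libraries from uninjured FVB Neurog1-eGFP mice, 51 from the same strain 5 days after olfactory bulbectomy and 26 at 14 days. OMP-eGFP+ cells of the B6 OMP-eGFP strain gave 50 libraries at 14 days after bulbectomy and 89 libraries described as taken after transplantation (engrafted). The reference was uninjured wildtype B6;129SF1/J (F1) epithelium, with 96 libraries in each of 2 runs. All mice were 8 weeks old. Neurog1 is the bHLH factor of immediate neuronal precursors and OMP (olfactory marker protein) is made by mature neurons, so the 2 reporters mark early and late stages of the same lineage. Bulbectomy removes the target of the axons and sets off neuronal death and renewal. Strain and reporter cannot be told apart, and the host of the engrafted cells was not given in the labels.

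A library was used when 1000 or more genes had a signal of 1 or more, which kept 46, 48 and 25 Neurog1 libraries (uninjured, 5 days, 14 days), 42 OMP libraries at 14 days, 29 engrafted libraries, and 68 and 70 reference libraries of run 1 and run 2. Depth, recovered as fragments from the step between low values, ran from 13369 to 2186040 per kept library. The group medians were 848317, 1136942, 1099227, 1347935, 501827 and 504103 in the order above. The labels name no animal, so each group counts as 1 sample and no test between groups was possible. Intervals are exact 95% binomial (Clopper-Pearson) intervals over libraries and cover only the counting of cells. Summed over the 12 mature-neuron markers, CPM had medians over libraries of 1075, 1546 and 1089 in the Neurog1 sorts and 15566 and 15413 in the OMP sorts. Summed over the 10 immature-neuron markers, the medians were 9537, 10020 and 9872 CPM against 7694 and 4268 CPM. Of the reference libraries of run 1, 9 had over 10000 genes (median 14899) and stood apart as a cluster. Markers of neurons and of horizontal basal, microvillar, Bowman gland and immune cells were raised in it together. Their member share of Olfr CPM had an SD of 1.22 percentage points, against 35.9 over the reference. Whether each holds 1 cell was not tested, and they stay in the reference counts unless stated otherwise.

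Members were detected throughout, in a minority of sorted cells. A receptor was counted as found at 50 CPM or more, where CPM is a gene's signal divided by the library's sum and multiplied by 1000000. On that limit a member was found in 13 of 46 uninjured Neurog1 libraries (28.3%, interval 15.99 to 43.5%). It was found in 11 of 48 at 5 days (22.9%, 12.03 to 37.3%) and in 6 of 25 at 14 days (24%, 9.36 to 45.1%). The OMP sort at 14 days gave 17 of 42 (40.5%, 25.6 to 56.7%) and the engrafted cells 9 of 29 (31.03%, 15.3 to 50.8%). The intervals of the 5 sorts, which cover only the counting of cells within 1 sample each, overlapped. Any Olfr gene was found in 38, 36, 19, 41 and 25 of these libraries.

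The reference stood higher at 64 libraries over both runs (46.4%, 37.9 to 55.1%), but its runs differed. Run 1 gave 17 of 68 (25.0%, 15.3 to 37.0%) and run 2 gave 47 of 70 (67.1%, 54.9 to 77.9%), and those intervals did not overlap. Sustentacular cells are the supporting cells of the epithelium and should hold no receptor mRNA. In sustentacular-like reference libraries a member was found in 3 of 12 of run 1 (25.0%, median 538102 fragments) and in 17 of 22 of run 2 (77.3%, median 676924 fragments). In mature-neuron-like libraries it was found in 5 of 28 of run 1 (17.9%, median 244112 fragments) and in 9 of 17 of run 2 (52.9%, median 503425 fragments). By these cluster names the neuronal share was below the sustentacular share in each run, with overlapping intervals. They were 6.06 to 36.9% and 5.49 to 57.2% in run 1, and 27.8 to 77.02% and 54.6 to 92.2% in run 2. Presence of a member at 50 CPM in a reference library is therefore not read as expression by that cell. At a summed level over 1000 CPM the order differed in run 1 only, with 5 of 28 neuron-like and 0 of 12 sustentacular-like libraries. In run 2 the sustentacular-like share stayed the higher one, with 7 of 22 libraries against 5 of 17 neuron-like ones. Where the lower values come from was not tested. One of the 2 sustentacular-like clusters rested on 3 raised markers, and 2 further clusters in which all 10 sustentacular markers were raised stayed unnamed. Over all groups, a member was found in 16 of 19 libraries of that 3-marker cluster (84.2%). The other sustentacular-like cluster, with all 10 markers raised, gave 4 of 16 (25.0%), and the 2 unnamed clusters gave 9 of 26 and 9 of 17. In run 2, Omp had a median of 1104 CPM in sustentacular-like and 4440 CPM in neuron-like libraries.

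The summed level was carried by few cells. In the uninjured Neurog1 sort the summed CPM over the members ran from 0 to 12407 with a median of 0.785 and a mean of 607 ± 2206 (SD over 46 cells). At 5 days it ran from 0 to 15432 with a median of 0 and a mean of 551 ± 2360. At 14 days it ran from 0 to 12508 with a median of 0 and a mean of 1256 ± 3102. In these sorts most libraries lay near 0 and a handful above 1000 CPM, namely 5, 4 and 5 libraries.

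The OMP sort at 14 days reached 86756 CPM, with a median of 0.766 and a mean of 5054 ± 14730. The engrafted cells reached 34090 CPM with a median of 0 and a mean of 3496 ± 9186. The means of both OMP sorts were above those of the 3 Neurog1 sorts, while every SD exceeded its mean and the ranges overlapped. The reference ran from 0 to 31983 CPM with a median of 56.5 and a mean of 1558 ± 4730. Its means were 837 in run 1 and 2257 in run 2.

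**Figure D1:**
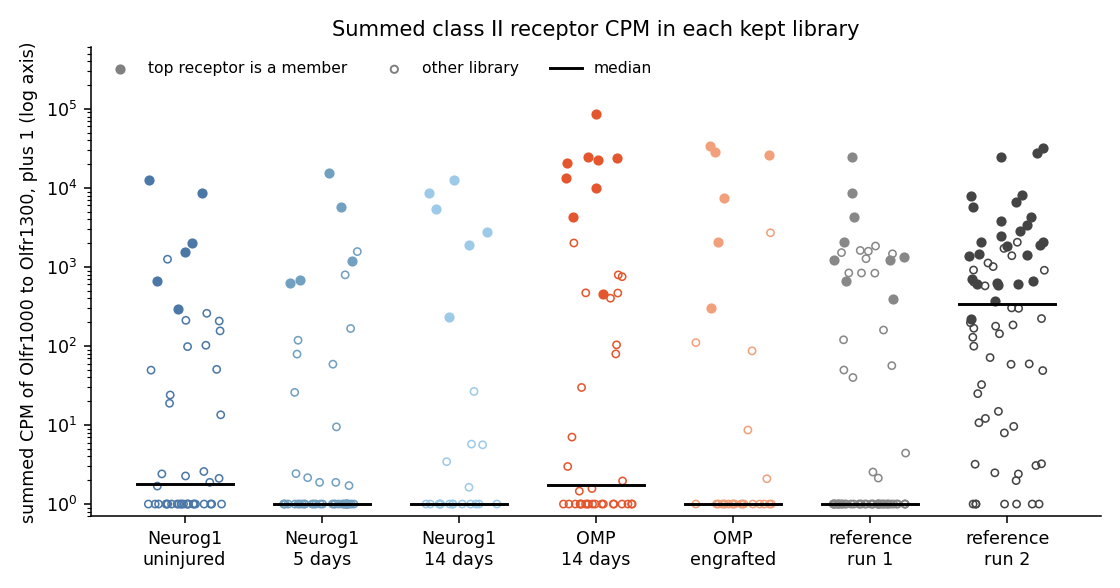
Summed CPM of the members plus 1 (log axis) in each kept library by group, with reference runs apart. Filled points are libraries whose top receptor is a member and bars are medians. At 0 sit 22 of 46 uninjured, 30 of 48 5-day and 14 of 25 14-day Neurog1 libraries, 19 of 42 OMP, 18 of 29 engrafted, 42 of 68 run 1 and 7 of 70 run 2 libraries, and the highest, at 86756 CPM, is an OMP library at 14 days.

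As a share of all Olfr CPM pooled over a group, members held 13.4% in uninjured, 9.31% in 5-day and 25.5% in 14-day Neurog1 cells. They held 44.1% in OMP cells at 14 days, 37.2% in engrafted cells and 22.6% in the reference (9.23% in run 1, 47.4% in run 2). A single library supplied 44.4%, 58.4% and 39.8% of the member CPM in the Neurog1 sorts and 40.9% and 33.6% in the OMP sorts. Without that library the pooled shares were 7.95%, 4.10%, 17.1%, 31.8% and 28.2%, which kept the order of the groups. In uninjured Neurog1 cells it was library 52, in 5-day cells library 32, in 14-day cells library 8, in OMP cells library 32 and in engrafted cells library 14. Averaged over libraries in place of pooling, the share was 15.5%, 15.5% and 24.3% in the Neurog1 sorts and 24.1% and 25.9% in the OMP sorts, with SDs from 29.4 to 42.6 percentage points. The gap between 14-day Neurog1 and OMP cells in the pooled share was therefore not present in the average share.

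The top receptor of a library, the Olfr gene of highest FPKM among those at 50 CPM or more, was a member in 68 of the libraries with any receptor found (23.9%, 19.1 to 29.3%). By sort this was 6 of 38 uninjured (15.8%, 6.02 to 31.3%), 5 of 36 5-day (13.9%, 4.66 to 29.5%) and 6 of 19 14-day Neurog1 libraries (31.6%, 12.6 to 56.6%). It was 9 of 41 OMP libraries at 14 days (21.95%, 10.6 to 37.6%) and 6 of 25 engrafted libraries (24%, 9.36 to 45.1%). All 5 intervals overlapped one another and each included 19.98%, the members' share of Olfr entries. The reference gave 9 of 59 in run 1 (15.3%, 7.22 to 26.99%) and 27 of 66 in run 2 (40.9%, 28.95 to 53.7%).

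**Figure D2:**
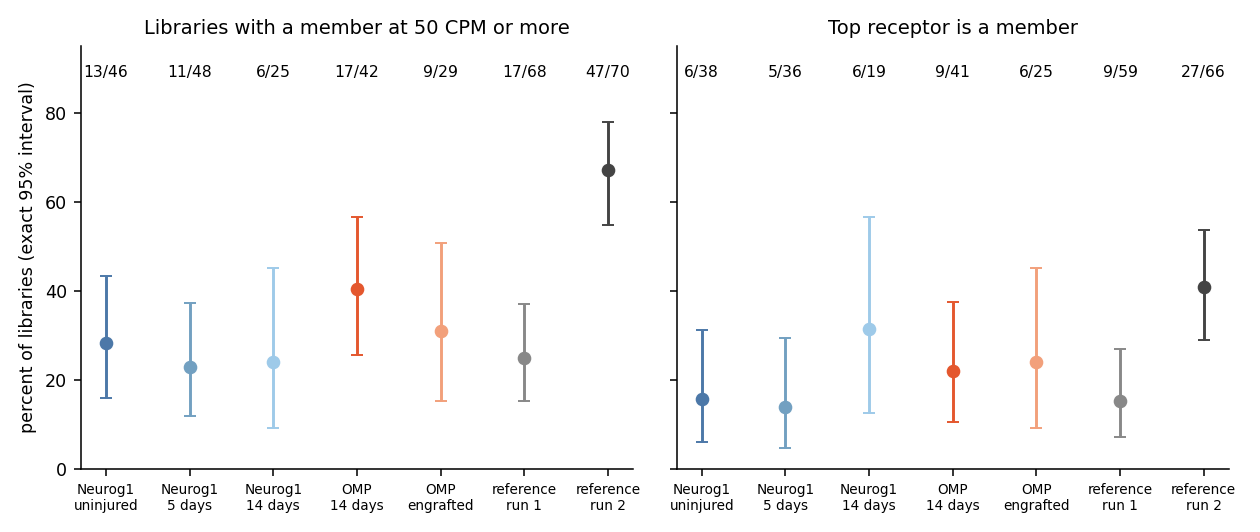
Percent of kept libraries with a member at 50 CPM or more (left) and percent of libraries with any receptor found whose top receptor is a member (right), with exact 95% intervals and counts above. The sorted groups' intervals overlap in both panels and reference run 2 lies highest, at 67.1% and 40.9%.

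Where a member was top, its median level was higher in the OMP sorts than in the Neurog1 sorts. Its CPM ran from 290 to 12227 (median 1777) in 6 uninjured, from 479 to 9384 (median 1190) in 5 5-day and from 180.7 to 12449 (median 4054) in 6 14-day Neurog1 libraries. In the 9 OMP libraries at 14 days it ran from 450.9 to 86700 (median 20479) and in the 6 engrafted libraries from 302.5 to 34076 (median 16776). The ranges overlapped at the low end. It exceeded 10000 CPM in 7 of 9 OMP and 3 of 6 engrafted libraries against 1 of 6, 0 of 5 and 1 of 6 in the Neurog1 sorts. Libraries topped by another receptor had medians of 938, 1741 and 4323 CPM in the Neurog1 sorts and 5558 and 9388 CPM in the OMP sorts.

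The top member also took more of the library's receptor signal in OMP cells. It held a median of 71.9%, 62.3% and 71.6% of all Olfr CPM in the 3 Neurog1 sorts and 98.7% and 99.5% in OMP and engrafted cells. It exceeded 90% in 6 of 9 OMP and 5 of 6 engrafted libraries, against 3 of 6, 1 of 5 and 2 of 6 Neurog1 libraries. For other top receptors the medians were 77.3%, 96.7% and 98.5% in the Neurog1 sorts and 95.7% and 99.4% in the OMP sorts. Omp itself had a median of 520, 0 and 62.1 CPM in the Neurog1 libraries topped by a member, and 555 and 633 CPM in those of the OMP sorts.

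The highest single value was Olfr1110 in OMP library 32, at 86700 CPM or 138092 fragments and 99.9% of that cell's Olfr CPM. In the same sort Olfr1173 reached 24744 CPM (library 47), Olfr1251 reached 24104 CPM (library 20), Olfr1037 reached 22568 CPM (library 36) and Olfr1200 reached 20479 CPM (library 44). Each was top in 1 library of the sort. Among engrafted cells the leading members were Olfr1097 at 34076 CPM, Olfr1212 at 28371 CPM, Olfr1098 at 26097 CPM, Olfr1226 at 7455 CPM and Olfr1274-ps at 2070 CPM. Olfr1274-ps was the 1 pseudogene-named member of 6 that was found in any library, and it was the only receptor found in that cell.

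In uninjured Neurog1 cells the leading members were Olfr1252 at 12227 CPM, Olfr1042 at 8564 CPM, Olfr1186 at 1991 CPM, Olfr1161 at 1562 CPM and Olfr1026 at 663 CPM. At 5 days they were Olfr1034 at 9384 CPM, Olfr1039 at 5654 CPM, Olfr1152 at 1190 CPM, Olfr1151 at 619 CPM and Olfr1057 at 479 CPM. At 14 days they were Olfr1225 at 12449 CPM, Olfr1168 at 8499 CPM, Olfr1183 at 5357 CPM, Olfr1123 at 2751 CPM and Olfr1206 at 863 CPM. The 3 lists share no gene, but they come from only 6, 5 and 6 libraries topped by a member, and nothing is read from this. Last in the 14-day list, Olfr1206 held 43.1% of its library's Olfr CPM. It was found with 2 other members, Olfr1197 at 584 CPM and Olfr1196 at 319.1 CPM. In uninjured library 58, Olfr1186 held 46.3% beside Olfr291 at 1722 CPM, and in library 61 Olfr1161 held 47.5%.

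The reference had 4 tops over 10000 CPM, of which Olfr1143 at 24860 CPM came from run 1. The others, all of run 2, were Olfr1079 at 31958 CPM, Olfr1124 at 25661 CPM and Olfr1033 at 24204 CPM (6654 FPKM). Omp stood at 19289 CPM in the Olfr1143 library. The next named member by CPM, Olfr1036 of run 1, reached 8114 CPM (10733 FPKM).

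Over all kept libraries, 78 members (34.98%) were found at least once, against 34.4% of the 893 other Olfr genes. Of those 78, 46 were found in exactly 1 library. Of the rest, 1 was listed at 0 in every kept library and the others had some fragments without reaching 50 CPM. There were 47 members that topped a library, 36 of them a single time. Use was spread along the numbers: 17 of 38 members from 1000 to 1049 were found, 13 of 29 from 1050 to 1099, 11 of 37 from 1100 to 1149, 16 of 35 from 1150 to 1199, 11 of 41 from 1200 to 1249 and 10 of 43 from 1250 to 1300.

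The 11 members that topped more than 1 library were Olfr1079 and Olfr1176 (5 libraries each), Olfr1032 (4), Olfr1037 and Olfr1123 (3 each), and Olfr1034, Olfr1042, Olfr1080, Olfr1124, Olfr1173 and Olfr1251 (2 each). Olfr1042 did so within a single sort, uninjured Neurog1, at 8564 and 290 CPM. Olfr1079, Olfr1176, Olfr1032, Olfr1080 and Olfr1124 did so in the reference alone. Olfr1034, Olfr1037, Olfr1123, Olfr1173 and Olfr1251 topped libraries of a sort and of the reference.

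Some members recurred at lower level in many cells of a run. Olfr1079 was found in 12 of 70 run 2 libraries, from 68.996 to 31958 CPM with a median of 1187, in no run 1 library and in no sorted library. Those 12 libraries were 2 mature-neuron-like, 2 sustentacular-like and 8 of other or unnamed clusters. Olfr1176 was found in 9 of run 2 (102.1 to 2809 CPM, median 599), 6 of run 1 (86.3 to 121.96 CPM) and 2 OMP libraries. All 6 run 1 libraries were among those with over 10000 genes. Olfr1019 and Olfr1032 were found in 6 run 2 libraries each, Olfr1033 and Olfr1037 in 5 each, and Olfr1123 and Olfr1132 in 4 each. One or more of these 8 members was found in 40 of the 70 run 2 libraries. Run 1 without the libraries over 10000 genes had no member in 4 or more libraries. How far free RNA or more than 1 cell per capture enters these values was not tested.

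**Figure D3:**
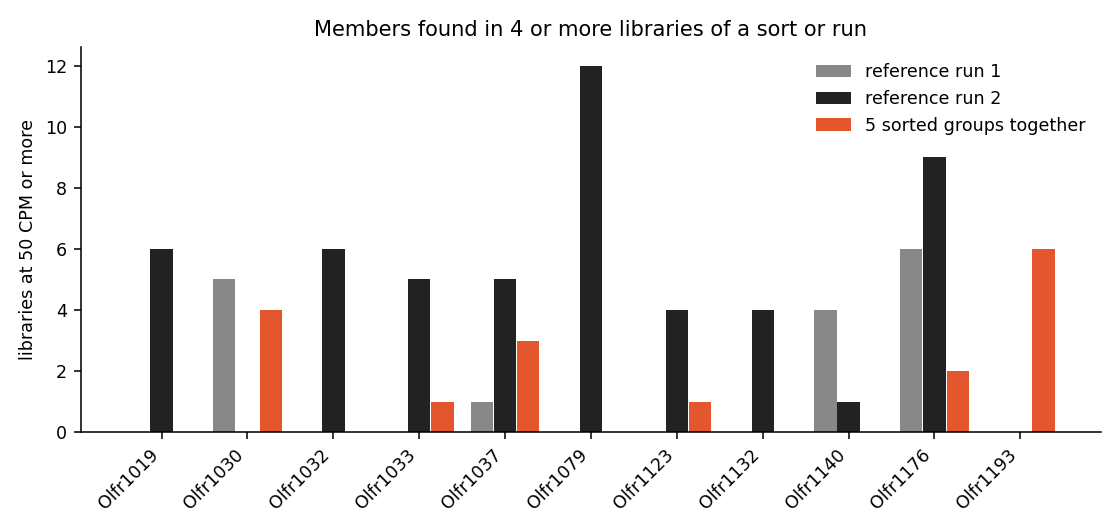
Number of libraries at 50 CPM or more for each member found in 4 or more libraries of a sort or reference run. Bars are run 1 (68 libraries), run 2 (70) and the 5 sorts together. Olfr1079 is confined to run 2 at this limit, with 12 libraries, and Olfr1193 to the sorts, with 6.

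No member was found in 4 or more libraries of a Neurog1 sort or of the engrafted cells. In the OMP sort at 14 days Olfr1193 was found in 6 of 42 libraries, from 56.8 to 789 CPM with a median of 272.94. It was top in 1 of them, library 2, at 450.9 CPM. In the other 5 it came with Olfr180, a receptor outside the number range, which was found in 10 libraries of this sort. The ratio of Olfr180 to Olfr1193 CPM was 1.20, 1.33 and 1.35 in libraries 21, 10 and 26. It was 3.52 in library 35 and 59.6 in library 22, the last with Olfr180 itself as top receptor at 4672 CPM.

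Neighbouring numbers are neighbouring genes. All RefSeq genes of the number range (GRCm38.p6 table) lie on chromosome 2, and all but 1 of the steps along the chromosome go to a higher number. A symbol match was had for all but 2 members. Coding sequences were read from GENCODE vM21 (GRCm38) for all but 5 members, and all but 4 of these are coded in 1 exon, with a median length of 939 bases. They span chr2:85607964-111665166 with a median of 0.0187 megabases between neighbouring coding regions and a single gap of 20.8 megabases between Olfr1274-ps and Olfr1275. The files themselves are in mm9, and these GRCm38 positions were used only for sequence and order.

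In sorted cells, members found together in 1 library were often neighbours. Members whose numbers differ by 5 or less were counted as neighbours. Of 32 member pairs found within a sorted library, 12 were neighbours (37.5%, 21.1 to 56.3%), while of pairs taken across 2 different sorted libraries 4.55% were. In other Olfr genes the values were 12 pairs (4.72%) within and 0.779% across sorted libraries. In the reference 2 of 51 member pairs were neighbours (3.92%, 0.478 to 13.5%), against 6.96% across. There were 0 of 27 in run 1 (up to 12.8%) and 2 of 24 in run 2. Most run 1 pairs came from libraries 6, 7, 8 and 9, each with over 10000 genes and several members at low level. Over all groups, sorted and reference, neighbours were 14 of 83 pairs (16.9%), and 14 of 58 (24.1%) without the libraries over 10000 genes. Pairs that share a library are not independent.

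The 12 sorted pairs came from 10 libraries, and with the 2 reference pairs 10 of 14 had the lower member under 10% of the higher one. In 5-day Neurog1 library 32, Olfr1034 stood at 9384 CPM, Olfr1036 at 5864 CPM and Olfr1033 at 184.5 CPM. Per length, Olfr1034 and Olfr1036 had 10801 and 6815 FPKM and Olfr1033 had 49.6 FPKM. This was the 1 library of the 10 with a second member above 1000 CPM.

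Olfr1168 and Olfr1173 were found together in both directions. In 14-day Neurog1 library 3 Olfr1168 stood at 8499 CPM and Olfr1173 at 86.96 CPM (1.023%). In OMP library 47 Olfr1173 stood at 24744 CPM and Olfr1168 at 71.6 CPM (0.289%). The gene that was high in one cell was the low one in the other.

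Further pairs had the same shape. Olfr1252 at 12227 CPM came with Olfr1250 at 135.03 CPM (uninjured library 52), Olfr1251 at 24104 CPM with Olfr1253 at 120 CPM (OMP library 20), and Olfr1200 at 20479 CPM with Olfr1196 at 143.6 CPM (OMP library 44). In 14-day library 4 the levels were closer, with Olfr1197 at 584 CPM and Olfr1196 at 319.1 CPM (54.6%). In OMP library 30 Olfr1036 stood at 446.4 CPM and Olfr1037 at 68.97 CPM. The reference pairs, both in run 2, were Olfr1032 at 1923 CPM with Olfr1033 at 152.4 CPM, and Olfr1037 at 353.5 CPM with Olfr1033 at 288.3 CPM. The last (81.5%) had the closest levels of the 14 pairs by CPM, but not per length, at 377.9 and 78.9 FPKM. Olfr1033 had a median of 3.67 CPM per FPKM, against 0.717 to 0.913 in Olfr1032, Olfr1034, Olfr1036 and Olfr1037. Its CPM therefore stands high beside theirs. The 2 pairs with the lowest second values fell outside the naming rule and are named after their values were seen: Olfr1039 at 5654 CPM with Olfr1040 at 61.8 CPM, and Olfr1226 at 7455 CPM with Olfr1228 at 57.1 CPM. The lower value of all 14 pairs was a whole number of fragments within 0.02, from 26 to 6453.

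**Figure D4:**
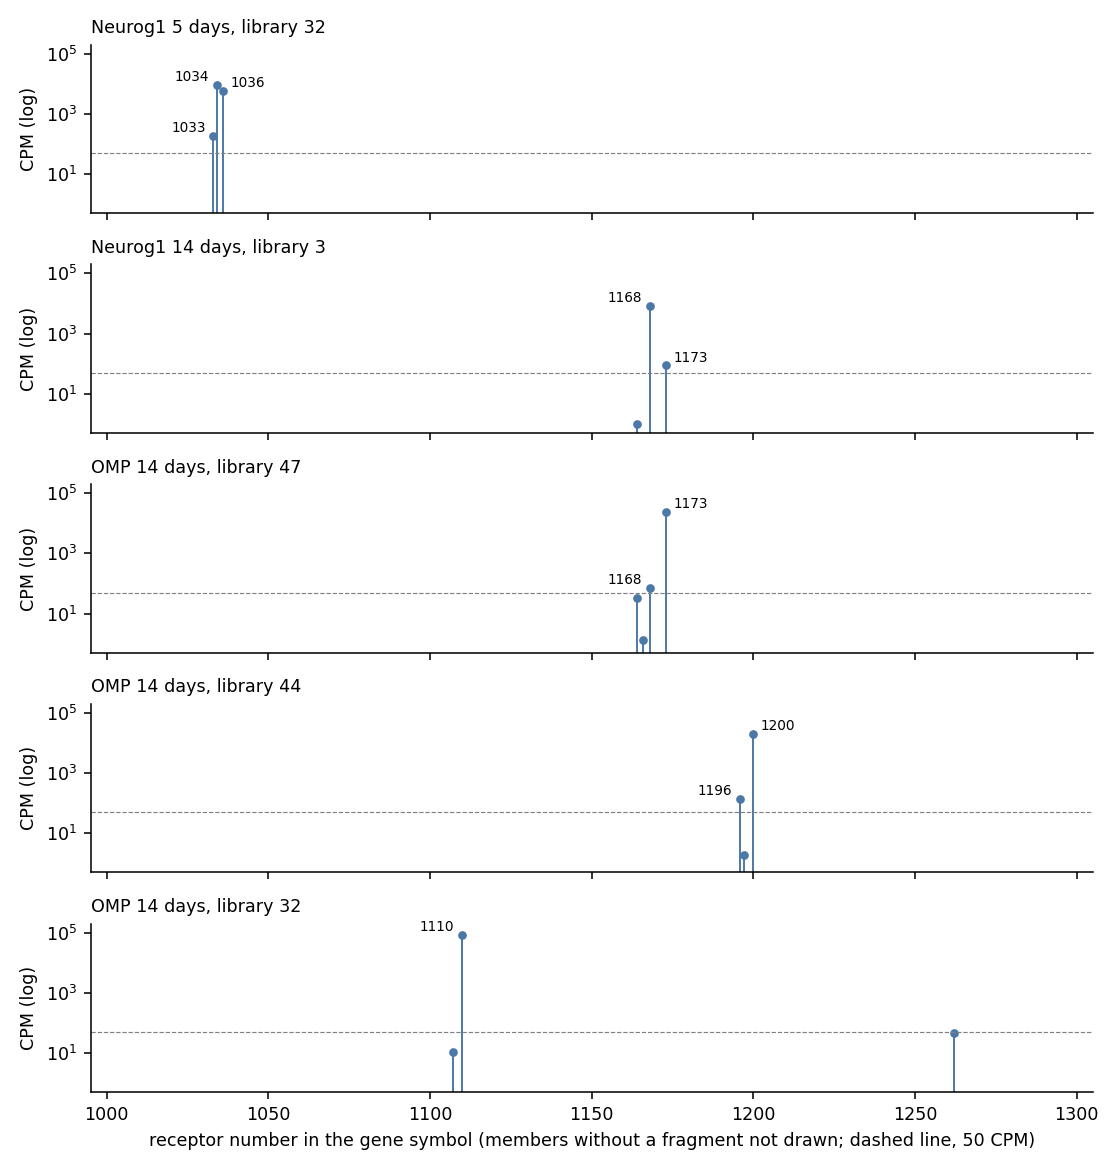
CPM (log axis) of each member with a fragment against the number in its symbol, in 5 sorted libraries, with those at 50 CPM or more labelled and a dashed line at 50 CPM. In 4 of the 5 the members at 50 CPM or more sit within 5 numbers of each other, and in OMP library 32 Olfr1110 stands alone at 86700 CPM.

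Many of these neighbours have nearly the same coding sequence. Of the 13 distinct neighbour pairs found together, 7 were 90% or more identical over the coding sequence (median of the 13, 92.7%). Of the 795 neighbour pairs never found together, 6.04% were (median 64.7%), and of 54 pairs found together that were not neighbours 0 were (highest 69.6%). Identity was 97.96% for Olfr1034 and Olfr1036, 97.04% for Olfr1196 and Olfr1197, 96.9% for Olfr1168 and Olfr1173, 96.7% for Olfr1250 and Olfr1252, 95.2% for Olfr1032 and Olfr1033, 93.9% for Olfr1251 and Olfr1253 and 92.7% for Olfr1039 and Olfr1040. The longest stretch without a difference was over 100 bases in each of these 7 pairs. A further 2 pairs stood just below, Olfr1196 and Olfr1200 at 88.03% and Olfr1226 and Olfr1228 at 87.04%. The other 4 were less alike: Olfr1033 with Olfr1034 at 75.2% and with Olfr1036 at 74.2%, both in 5-day library 32, Olfr1033 with Olfr1037 at 57.8% and Olfr1036 with Olfr1037 at 57.6%.

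To show how few bases separate the members of a pair, the 90 aligned coding bases with the most differences are printed for 3 pairs, 5′ to 3′ on the coding strand (GENCODE vM21 transcripts, GRCm38), with the differing bases in capitals. The pair of the 5-day library with 2 high members differs at 6 of 90 bases, in chr2:86046726-86046815 and chr2:86074984-86075073, both on the plus strand.
Olfr1034: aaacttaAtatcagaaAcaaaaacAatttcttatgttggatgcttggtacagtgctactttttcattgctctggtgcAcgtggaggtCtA
Olfr1036: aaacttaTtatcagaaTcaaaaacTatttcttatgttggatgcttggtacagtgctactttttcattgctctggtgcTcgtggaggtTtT
The pair found in both directions differs at 8 of 90 bases, in chr2:88185478-88185567 (plus strand) and chr2:88274359-88274448 (minus strand).
Olfr1168: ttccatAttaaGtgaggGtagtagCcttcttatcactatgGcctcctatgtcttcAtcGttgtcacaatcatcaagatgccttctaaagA
Olfr1173: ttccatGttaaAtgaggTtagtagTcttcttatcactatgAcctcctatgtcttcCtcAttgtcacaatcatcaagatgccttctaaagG
A pair from an OMP library, with lower identity, differs at 19 of 90 bases, in chr2:89667235-89667324 and chr2:89752177-89752266, both on the minus strand.
Olfr1251: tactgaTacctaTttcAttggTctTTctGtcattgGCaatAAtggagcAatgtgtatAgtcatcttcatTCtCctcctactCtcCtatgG
Olfr1253: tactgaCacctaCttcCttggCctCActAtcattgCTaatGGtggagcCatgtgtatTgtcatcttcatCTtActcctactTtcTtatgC
The sources used here do not say how the submitters' counting placed reads that fit both copies. Olfr1034 and Olfr1036 were also seen apart. In reference library 60 Olfr1034 stood at 1290 CPM with Olfr1036 at 0. In reference library 73 Olfr1036 stood at 8114 CPM with Olfr1034 at 0. Around all tops of 1000 CPM or more, 12 of 18 neighbours of 90% identity or more held fragments. Whether these pairs hold 2 transcripts or 1 transcript split between copies was not tested.

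Neighbours were then counted at any level. Around the 47 tops of 1000 CPM or more, 9.14% of neighbour slots (1 slot is 1 neighbour gene in 1 library) held any fragment, against 0.466% of slots farther away in number. In sorted libraries it was 12.6% against 0.409%, and in the reference 5.03% against 0.526%. Split by coding identity with the top, 12 of 18 neighbours at 90% or more held fragments (66.7%), 9 of 37 from 80 to under 90% (24.3%) and 11 neighbours under 80% (3.89%). Their median level was 0.760%, 0.105% and 0.0477% of the top. Of these 32 neighbours, 10 stood at 50 CPM or more and are among the pairs above (7, 2 and 1 by identity). Among neighbours under 50 CPM, 5 of 11 (45.5%), 7 of 35 (20%) and 10 under 80% identity (3.55%) held fragments. In sorted libraries the 3 shares were 83.3%, 31.03% and 3.62%, and in the reference 33.3%, 0% and 4.14%.

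**Figure D5:**
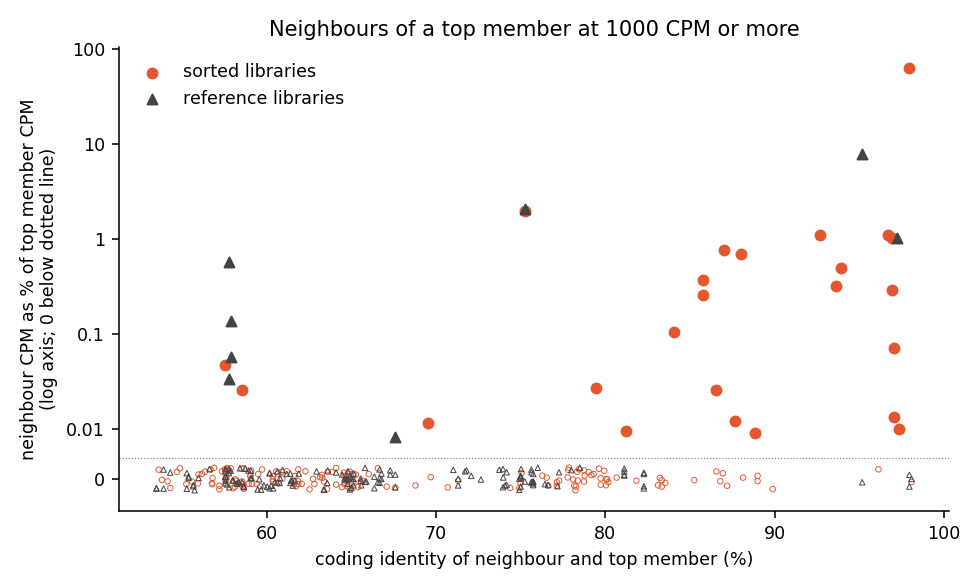
CPM of each neighbour as percent of the top member's CPM (log axis, with values of 0 below the dotted line) against coding identity, for tops of 1000 CPM or more. Circles are sorted and triangles reference libraries. At 90% identity or more 12 of 18 neighbours lie above 0, and under 80% the share is 3.89%.

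Between groups, which members carried signal changed, as each was found in few cells. A member passed when log2 of the ratio of mean CPM plus 1 was 1 or more either way, among genes with a mean of 1 CPM or more in either group. From uninjured to 5 days, 16 of 30 members were higher and 14 lower, where 22.5% and 27.7% of all genes passed. From uninjured to 14 days it was 12 higher and 14 lower of 26, beside 22.4% and 32% of all genes. From 5 to 14 days it was 13 and 16 of 29, beside 24% and 29.4%. These 3 comparisons share groups. A member enters only through the group where it is high, and one at 1 CPM in that group and 0 in the other already meets the limit, so the counts say which group held each member and nothing is read from their size.

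OMP cells at 14 days against Neurog1 cells at 14 days gave 16 higher and 11 lower of 27 members, beside 33.8% and 28.7% of all genes. Engrafted against OMP cells at 14 days gave 9 higher and 17 lower of 26, beside 22.2% and 36.3%. The same holds for these counts.

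Genes that carry the receptor to the cilia and relay its signal were measured in the same comparisons. Of 14 such genes 13 entered, and 13 were 2-fold higher in OMP than in Neurog1 cells at 14 days and 0 lower, beside 33.8% and 28.7% of all genes. Gnal, the olfactory G protein alpha subunit, had means of 5025 and 515 CPM, Cnga2, a subunit of the cyclic nucleotide-gated channel, 1312 and 510 CPM, and Rtp1, a receptor transport protein, 976 and 336.4 CPM. Against uninjured Neurog1 cells 6 of 13 were lower at 5 days (27.7% of all genes) and 6 of 13 at 14 days (32%). In either, 0 were higher, beside 22.5% and 22.4% of all genes. Among the lower genes was Omp, with means of 118.2 and 96.9 CPM against 854 CPM. From 5 to 14 days 2 were higher and 1 lower, beside 24% and 29.4% of all genes. In engrafted against OMP cells 1 was higher and 2 lower, beside 22.2% and 36.3%. All of these are group means, which a few cells can carry. The mature-neuron marker list shares genes with this one, Gnal and Omp among them. Its summed CPM had medians of 1075, 1546 and 1089 in uninjured, 5-day and 14-day Neurog1 cells, and highest values of 39245, 9741 and 8674. The lower means after bulbectomy are therefore not read as lower levels in the typical cell.

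Markers of sustentacular cells moved in the same comparisons. Of these 10 markers, 8 were 2-fold higher and 1 lower in OMP than in Neurog1 cells at 14 days (median log2 ratio 4.04). The shares of all genes were 33.8% and 28.7%. The markers' summed CPM ran from 0 to 70744 (median 0) in OMP and from 0 to 1575 (median 24.6) in Neurog1 cells. From uninjured to 5 days 8 of 9 were higher and 1 lower (median 4.28), beside 22.5% and 27.7% of all genes. The sums ran from 0 to 1187 (median 0) in uninjured and from 0 to 48274 (median 17.9) in 5-day cells. From uninjured to 14 days 4 of 8 were higher and 1 lower, beside 22.4% and 32% of all genes. From 5 to 14 days 1 of 9 was higher and 7 lower, beside 24% and 29.4%. In engrafted against OMP cells 3 of 10 were higher and 3 lower, beside 22.2% and 36.3%. Hes1 was at 0 in every uninjured Neurog1 library and Ermn in every 14-day one. The highest sums lay far above the medians, and the part of this signal in the results was not tested.

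Of the 17 genes of receptor choice and its feedback, all entered. In OMP against Neurog1 cells at 14 days 3 were higher (17.6%) and 6 lower (35.3%), beside 33.8% and 28.7% of all genes. Lhx2, a factor that binds receptor enhancers, had means of 181.8 and 466.9 CPM, its cofactor Ldb1 had 9.72 and 27.2 CPM, and Adcy3, the adenylyl cyclase of the feedback loop, had 184.9 and 31.8 CPM. Against uninjured Neurog1 cells 1 was higher (5.88%) and 3 lower (17.6%) at 5 days, beside 22.5% and 27.7% of all genes. At 14 days 1 was higher (Cbx5) and 1 lower (Adcy3), beside 22.4% and 32% of all genes. From 5 to 14 days 2 were higher and 1 lower, beside 24% and 29.4%. Engrafted against OMP cells gave 2 higher (11.8%) and 3 lower (17.6%), beside 22.2% and 36.3%, among them Kdm1a, the demethylase LSD1 that acts at the start of choice, with means of 10.6 and 103.4 CPM. These are group means over cells with no replicate animals.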

How the data were processed

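The authors deposited 2 tables with 1 column per captured cell. The first holds signal, estimated fragments per gene that the authors had scaled to nearly equal totals (99.9% of nonzero values are not whole). FPKM values, also made by the authors, fill the other table. Build mm9 and the tools STAR 2.5.2a, Cuffnorm, Cufflinks 2.2.1 and FastQC are named in the submitters' processing notes. The sources used here do not state their roles or the annotation. The 223 members, gene lists and limits were chosen with earlier results of these data known.

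Of 23308 entries, 27 with names altered into dates (0.418% of signal) were left out. CPM is the share of a column's remaining sum times 1000000. Within a library a median of 98.4% of low values were whole multiples of a smallest step (tolerance 0.02, lowest library 97.0%), from which fragments were recovered. The planned minimum of 1000 genes was applied to genes with a signal of 1 or more, and 141 of 469 libraries fell below it, leaving 328 with 138 of the reference. Every member that topped 2 or more libraries, the 5 highest tops of each group and up to 12 neighbour pairs were to be named. Libraries were clustered without Olfr genes (2000 variable genes, 20 components, Ward, 12 clusters) and named from marker lists. No doublet caller was run. Coding sequences were aligned globally with Biopython 1.88. Scripts used Python 3.11.15, pandas 2.3.3, numpy and scipy, and were tested on simulated data. Alternatives changed the CPM limit, gene filter, depth, runs, pseudocount and neighbour gap.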

Additional observations from a re-analysis of the deposited data

Results flagged for a closer look

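Of the libraries under the gene minimum, which no comparison above uses, 30 held a member at 50 CPM or more with more than 3 fragments. They were 4 of 15 uninjured and 1 of 3 5-day Neurog1 libraries, 0 of 1 14-day Neurog1 library, 4 of 8 OMP libraries at 14 days, 5 of 60 engrafted and 16 of 54 reference libraries. The left-out libraries had a median of 49640 fragments, and 1 engrafted library among them reached a summed member level of 166146 CPM. Receptor signal therefore appears in data outside the main measurement.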

How the results depend on the processing

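Of the values recomputed under an alternative, 23 moved and the others stayed within the spread of the reported one (the exact interval of a share, 1 SD over cells for CPM, 1.5 times for a count). All 45 recomputed member shares of Olfr CPM and all 33 recomputed summed levels stayed within 1 SD, which is wide. For the sorted groups, shares of top receptors and of libraries with a member also stayed within their intervals under every alternative run. In the reference the top share was 15.3% in run 1 alone and 40.9% in run 2 alone. The reference share of libraries with a member was 55.1% at a limit of 10 CPM, 33.3% at 200 CPM, 25.0% in run 1 and 67.1% in run 2. The cause was not tested.

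Neighbours made up 14 of 83 member pairs over all libraries (16.9%). The share was 6.02% at a number gap of 1 and 4.197% of 5528 pairs at a limit of 10 CPM. In alternatives chosen after seeing the data, it was 8.0% (6 of 75) without pairs of 90% identity or more, 40.9% (9 of 22) without the recurring members and 37.5% in sorted libraries alone. With a pseudocount of 10, members 2-fold higher and lower numbered 8 and 6 from uninjured to 5 days, 7 and 6 from uninjured to 14 days, and 7 and 8 from 5 to 14 days. In OMP against Neurog1 cells 6 were then lower. With a mean CPM of 5 or more the counts were 9 and 7 from uninjured to 5 days, 7 lower from uninjured to 14 days, and 8 and 9 from 5 to 14 days. In these last cases fewer genes enter or the ratio is shrunk by construction. Low depth left 6 kept libraries out of the thinned comparison. No paired analysis was possible because each group is 1 sample and no result comes from a test.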
